A study of Mus musculus with 4 samples.

Results

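The cytosolic ribosomal protein genes were described in mouse heart after myocardial infarction, together with Rpl3l, the muscle paralogue of Rpl3. Members were the genes whose symbol is Rpl, Rps or Rplp followed by a number and, at most, a, x, l, al or l1, which leaves out the Rps6 kinases and named pseudogenes. The rule took 81 of the 17550 genes listed in any library, and all 81 had reads in every library. They comprised 43 large subunit, 29 small subunit and 3 stalk protein genes, and 6 genes with a symbol ending in l or l1 (Rpl3l, Rpl22l1, Rps27l, Rpl39l, Rpl36al and Rpl7l1). Rpl10l and Rps4l, which the rule would also take, were not listed in any library.

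The series compared infarcted with non-infarcted left ventricle, and Neil3-/- with wild-type (WT) mice, by Illumina RNA sequencing of total RNA. Neil3 codes for a DNA glycosylase of base excision repair. The 4 groups were infarcted tissue labelled Neil3-/-, infarcted WT tissue, non-infarcted tissue labelled Neil3-/- and non-infarcted WT tissue, with 1 library each. All mice were C57BL/6, 8 weeks of age, and had an experimental infarction 3 days before RNA extraction, so the non-infarcted tissue also came from infarcted hearts and no group was from uninjured animals. Whether each library holds RNA of 1 mouse or of pooled mice is not given, nor is the part of Neil3 that was deleted.

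The infarcted libraries held 18.2 M (labelled Neil3-/-) and 17.3 M (WT) uniquely assigned reads, the non-infarcted libraries 14.3 M (labelled Neil3-/-) and 14.9 M (WT), and no difference between them has a replicate check. Levels are given as RPKM, reads scaled to gene length in kilobases and to the reads of the library. Intervals in parentheses are exact 95% Clopper-Pearson intervals of read shares, and they cover counting error only, not the spread between animals. Neil3 itself was at 18.5 and 12 RPKM in the infarcted and non-infarcted libraries labelled Neil3-/-, against 3.95 and 1.83 RPKM in the WT libraries. A level over the whole gene does not check a label whose deleted part is not named, so the libraries are called labelled Neil3-/- throughout.

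Ribosomal proteins assemble with ribosomal RNA into the large subunit, which forms peptide bonds, and the small subunit, which decodes the mRNA. Their mRNAs are among the most abundant of a cell and are known as a co-regulated group, since most begin with a 5′ terminal oligopyrimidine (TOP) tract, a C followed by a run of pyrimidines, through which growth signals acting on mTORC1 set their translation. A few members have paralogues made in particular tissues. Rpl3, which reaches towards the peptidyl transferase centre, is replaced in part of the ribosomes of heart and skeletal muscle by Rpl3l.

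Start sites were compared first, because the TOP tract is the sequence feature by which the family is known. RefSeq promoter sequences of build GRCm38.p6 matched 61 of the 81 members. The windows printed here run from 10 bases before the annotated start base to 19 after it, 5′ to 3′ on the gene's strand, and capitals mark a tract of a C followed by at least 4 bases that are C or T, beginning within 5 bases of the start. The first 4 are members with a tract: Rpl13a at chr7:45128726-45128755 on the minus strand, Rpl12 at chr2:32961702-32961731 on the plus strand, Rps26 at chr10:128626487-128626516 on the minus strand and Rps6 at chr4:86857348-86857377 on the minus strand. Rpl24 at chr16:55966265-55966294 and Rpl3l at chr17:24727816-24727845, both on the plus strand, had none. The elongation factor pair Eef1a2 (chr2:181156996-181157025, minus strand) and Eef1a1 (chr9:78481705-78481734, minus strand) is shown because it forms a second muscle and general paralogue pair.
Rpl13a: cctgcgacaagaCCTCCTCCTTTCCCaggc
Rpl12: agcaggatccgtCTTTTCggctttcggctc
Rps26: gcaagccgccggatCCTCTTTCgagtcttg
Rps6: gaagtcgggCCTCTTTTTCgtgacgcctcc
Rpl24: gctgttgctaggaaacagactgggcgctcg
Rpl3l: ttctagctctgtcatttgacctctggtgcc
Eef1a2: cctggtctgcgttctcgctcactggttctc
Eef1a1: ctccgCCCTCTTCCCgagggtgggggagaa

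Such a tract lay within 5 bases of the annotated start in 28 of 61 members (45.9%), against 18.5% of all 27025 promoters in the table and 20.1% of the 10045 promoters of genes at 1 RPKM or more in a library. The start base itself was a C followed by at least 4 bases that are C or T in 12 members (19.7%), against 2.48% of all promoters and 2.34% of those of genes at 1 RPKM or more. In most of these 12 members the tract began further upstream. Other motifs were sought on both strands from 250 bases before to 50 after the start. CANNTG, the E-box letters, lay in 30 members (49.2%), in 72.1% of all promoters and in 63.1% of those of genes at 1 RPKM or more. CCAAT lay in 19 members (31.1%), in 38.0% of all and in 38.6% of those of expressed genes. TATAAA lay in 7 members (11.5%), which is below the 14.2% of all promoters and above the 7.27% of those of expressed genes. The MEF2 motif lay in 0 members, in 3.29% of all promoters and in 1.84% of those of expressed genes. The Rpl3l promoter held CANNTG at offsets -145, -43, -20 and 2 from the start base. The first 3 of these are in capitals in the 250 bases upstream of Rpl3l, chr17:24727576-24727825 on the plus strand of GRCm38.p6.
Rpl3l upstream: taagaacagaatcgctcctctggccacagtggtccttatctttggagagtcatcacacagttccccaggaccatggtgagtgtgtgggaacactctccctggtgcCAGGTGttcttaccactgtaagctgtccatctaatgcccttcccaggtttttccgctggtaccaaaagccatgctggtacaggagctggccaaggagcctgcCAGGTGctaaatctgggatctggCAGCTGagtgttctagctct
A match of letters is a description of the sequence and not a binding site.

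The family took a larger share of the RNA in infarcted than in non-infarcted tissue, in both genotypes alike. Reads on the 81 members made up 2.57% (2.56 to 2.58) of the infarcted library labelled Neil3-/- and 1.62% (1.61 to 1.62) of the non-infarcted one. In WT they made up 2.58% (2.58 to 2.59) of the infarcted and 1.64% (1.63 to 1.64) of the non-infarcted library. Median RPKM of the members was 404 and 401 in the infarcted libraries labelled Neil3-/- and WT, against 253 and 246 in the non-infarcted libraries labelled Neil3-/- and WT. In bulk tissue, a change in the mix of cells and a change in RNA per cell cannot be told apart.

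**Figure D1:**
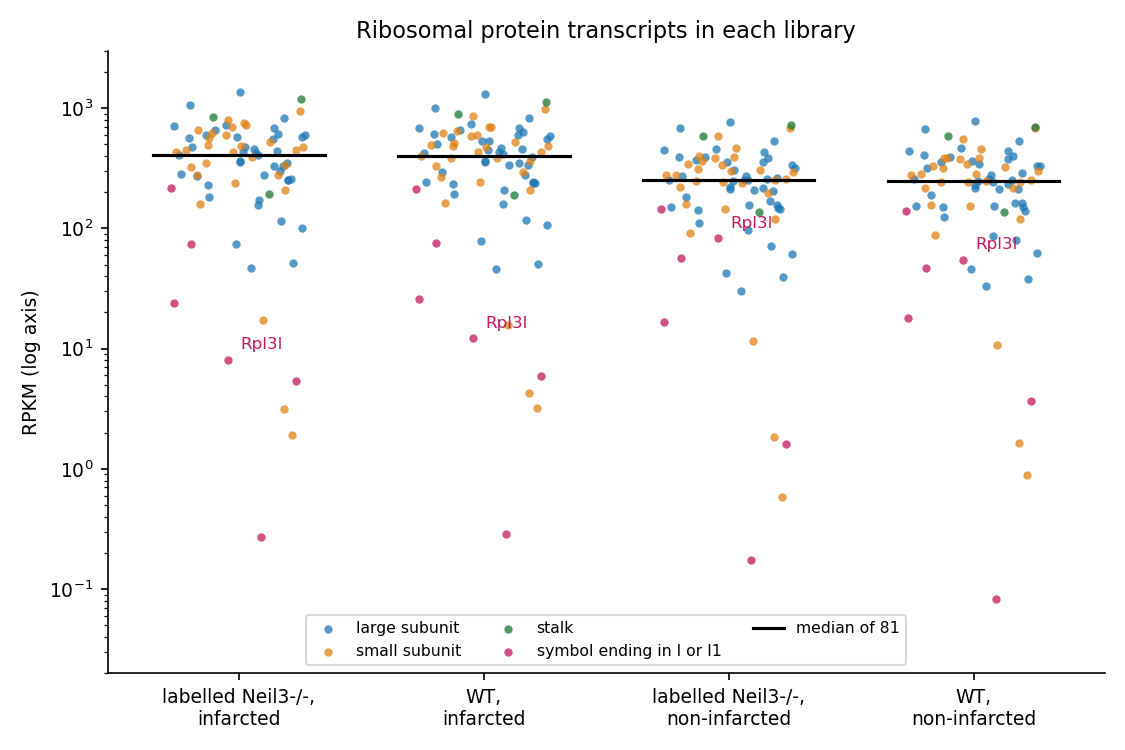
RPKM of the 81 members in each of the 4 libraries on a log axis, 1 point per gene, coloured by subunit class, with the median as a black line. The median lies at 404 and 401 RPKM in the infarcted libraries and at 253 and 246 RPKM in the non-infarcted libraries, while Rpl3l is lower in the infarcted libraries.

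Levels differed far more between members than between libraries. Of the 75 members whose symbol does not end in l or l1, 66 had a mean of 100 to 1000 RPKM over the 4 libraries, 8 were under 100 RPKM and 1 was above 1000 RPKM. Rpl41, which codes for a very short peptide of the large subunit, was highest, at 1367 and 1319.6 RPKM in infarcted tissue labelled Neil3-/- and WT and 772 and 787 RPKM in non-infarcted tissue. Rplp1, a stalk protein, was at 1196 and 1128 RPKM in infarcted tissue labelled Neil3-/- and WT, and at 721 and 700.2 RPKM in non-infarcted tissue labelled Neil3-/- and WT. Rpl23a, which lies near the exit tunnel, was at 1071 and 998 RPKM in infarcted tissue labelled Neil3-/- and WT, and at 688 and 672 RPKM in non-infarcted tissue labelled Neil3-/- and WT. These 3 had the highest means of the family, and each was higher in both infarcted than in both non-infarcted libraries. The lowest were Rps27, with 5 to 33 reads a library, Rps23, a protein of the decoding centre, with 14 to 42 reads, and the paralogue Rpl39l, with 1 to 4 reads. The highest mean was 643-fold above the lowest among the 75.

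Many of these levels depend on how reads from near-identical copies were counted. Among GENCODE transcripts, a median of 50.9% of a member's 50-base stretches also occurred in another annotated gene. There was a median of 8 and a maximum of 120 matching pseudogenes per member. For most members the matching genes were mainly pseudogenes, but not for all, with 6 of 520 for Rpl7l1. More than 50% of the stretches were shared for 41 members, and Rpl3l and Rpl39l were among those that shared none. Rpl3 shared 85.6% of its stretches with 26 pseudogenes and had 94.5% to 94.8% of its model covered. How reads with a second match were assigned is not given in the sources used here. Covered shares were low for the weakest members, at 11.7% to 23.4% for Rps23. Across the 75 members, mean RPKM and the shared percentage had a Spearman correlation of 0.29, given as a description across genes. Levels of single members, and ratios between members, are uncertain for this reason. Ratios of 1 member between libraries use the same gene model, but reads of copies that differ between tissues could enter them. The part of such reads was not tested.

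Infarcted against non-infarcted tissue was the first comparison. In the libraries labelled Neil3-/-, 79 of the 80 members compared (those at 1 RPKM or more in either library) were above 0 on the scale of log2(RPKM + 1) ratios, and their median was 0.68, or 1.6-fold. Of the 80, 60 passed 1.5-fold upwards in infarcted tissue, against 25.0% of all genes compared, and 1 was at least 1.5-fold lower, against 12.4%. In WT, 79 of 80 were above 0 with a median of 0.66, or 1.58-fold. There, 62 were at least 1.5-fold higher, against 21.6% of all genes, and 1 was lower, against 9.56%. The lower member was Rpl3l in both genotypes, and 53 of 80 members were at least 1.5-fold higher in both, against 2261 of 12362 genes (18.3%); the genotypes have no library in common. The median of all genes compared was itself 0.24 in the libraries labelled Neil3-/- and 0.21 in WT. Counting intervals of the RPKM ratio lay above 1 for 78 members, below 1 for 1 and across 1 for 1, in each genotype.

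The members clustered near the 1.5-fold line, which makes the count depend on the scaling of the libraries. Ratios between 1.4-fold and 1.6-fold were found for 31 members in the libraries labelled Neil3-/- and 39 in WT. With TMM scaling, which assumes that most genes do not differ, 9 members were at least 1.5-fold higher in the libraries labelled Neil3-/- (11.2%, against 14.8% of all genes) and 10 in WT (12.5%, against 12.7%). Under that scaling the members' median was 0.44 in both genotypes, while the median of all genes was 0.03 in the libraries labelled Neil3-/- and 0.01 in WT. The members were then above 0 in 78 of 80 cases labelled Neil3-/- (52.3% of all genes) and in 79 of 80 in WT (51.3%). The common shift of the family was thus present under both scalings, while the share of members past 1.5-fold stood above that of all genes with the deposited scaling and not with TMM. At least 2-fold higher were 2 members in the libraries labelled Neil3-/- (Rpl22l1 and Rps26), against 8.20% of all genes, and 1 member in WT (Rps27, from 33 and 8 reads), against 6.21%. At least 2-fold lower was Rpl3l in both, against 6.07% and 3.60% of all genes.

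**Figure D2:**
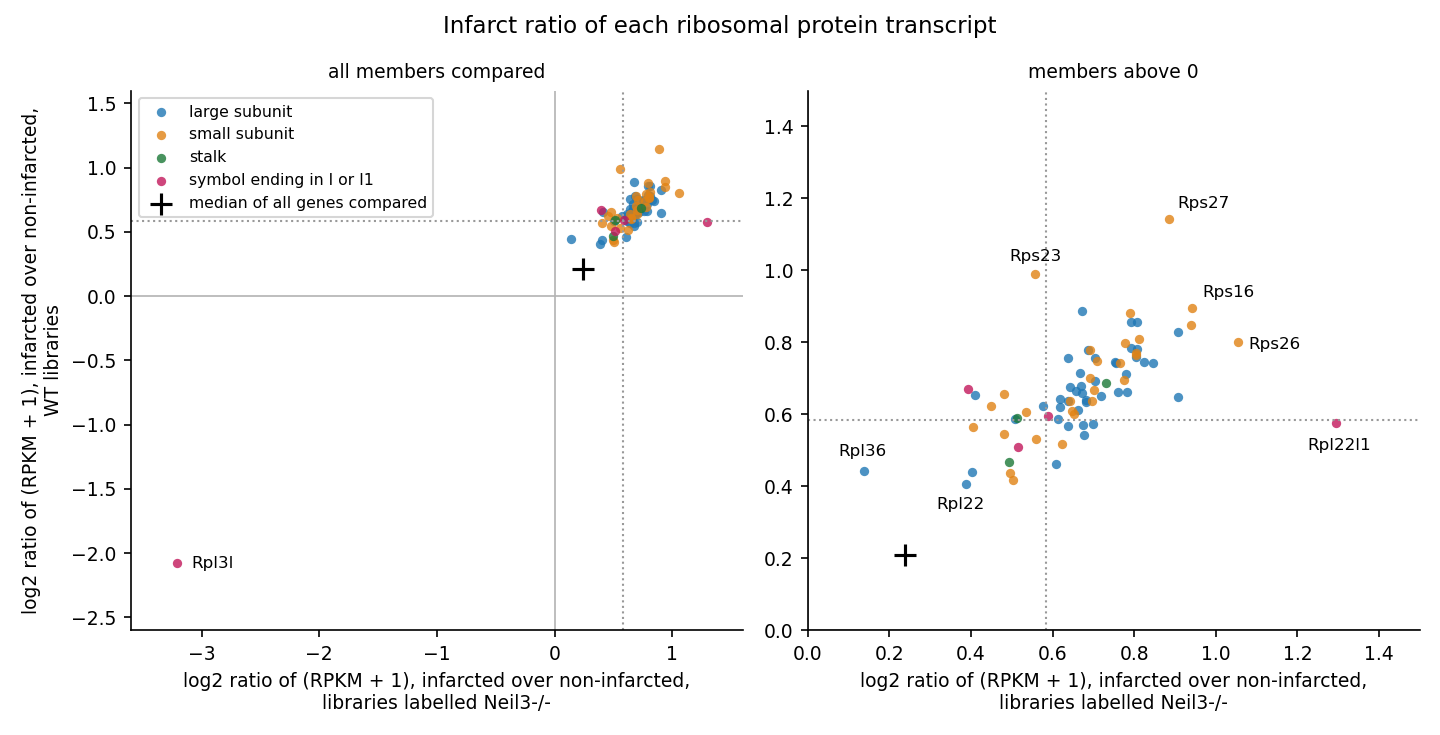
Log2 ratio of (RPKM + 1) in infarcted over non-infarcted tissue for the 80 members compared, libraries labelled Neil3-/- on the horizontal axis and WT on the vertical, coloured by class; dotted lines mark 1.5-fold and the cross marks the median of all genes (0.24 and 0.21). The left plot holds every member, with Rpl3l at -3.21 and -2.08, and the right plot enlarges the members above 0.

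Large subunit genes had a median log2 ratio of 0.68 in the libraries labelled Neil3-/- and 0.66 in WT. Rpl12, which binds the base of the stalk, was at 593 RPKM in infarcted and 316 RPKM in non-infarcted tissue labelled Neil3-/-, a ratio of 1.88 (1.80 to 1.96), and at 582 and 327 RPKM in WT. Rpl13a, known also from translational silencing in inflamed monocytes, was at 443 and 255 RPKM in infarcted and non-infarcted tissue labelled Neil3-/- and at 459 and 253 RPKM in WT, with ratios of 1.73 (1.67 to 1.80) labelled Neil3-/- and 1.81 (1.75 to 1.89) in WT. Both were thus higher in the 2 infarcted libraries than in either non-infarcted one. Rpl26, whose WT ratio of 1.86 (1.70 to 2.04) was the second highest among members at 5 RPKM or more, was at 156 and 97.4 RPKM labelled Neil3-/- and at 159.5 and 85.7 RPKM in WT. Rpl32 had a WT ratio of 1.81 (1.72 to 1.92). Rpl5 and Rpl11, which bind Mdm2 when ribosome assembly fails, had ratios of 1.70 (1.64 to 1.76) and 1.69 (1.61 to 1.76) labelled Neil3-/- and of 1.58 (1.53 to 1.64) and 1.68 (1.61 to 1.76) in WT.

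The smallest differences in the large subunit were those of Rpl36, Rpl22 and Rpl24. Rpl36 was at 173 RPKM in infarcted and 157 RPKM in non-infarcted tissue labelled Neil3-/-, a ratio of 1.10 (1.01 to 1.2), and at 208 and 153 RPKM in WT, a ratio of 1.36 (1.26 to 1.48). Rpl22, an RNA-binding member that a cell can do without, was at 52.0 and 39.5 RPKM labelled Neil3-/- and at 51.0 and 38.2 RPKM in WT. Rpl24, which forms a bridge to the small subunit, was at 348 and 263 RPKM labelled Neil3-/- and at 393 and 289.5 RPKM in WT. All 3 had higher levels in the infarcted library of each genotype, by less than the family's median. With TMM scaling Rpl36 turned to -0.10 on the log2 scale labelled Neil3-/-, the one member besides Rpl3l below 0 there.

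Small subunit genes had a median log2 ratio of 0.69 in the libraries labelled Neil3-/- and 0.70 in WT. Rps26, which lines the mRNA exit channel, was at 703 RPKM in infarcted and 338 RPKM in non-infarcted tissue labelled Neil3-/-, a ratio of 2.08 (1.98 to 2.18), and at 599 and 343 RPKM in WT, a ratio of 1.74 (1.66 to 1.83). Rps16, with a tail that reaches the decoding site, was at 654 and 339.9 RPKM labelled Neil3-/- and at 619 and 332 RPKM in WT, ratios of 1.92 (1.84 to 2.01) labelled Neil3-/- and 1.86 (1.79 to 1.94) in WT. Rps12 was at 749 and 390.5 RPKM labelled Neil3-/-, a ratio of 1.92 (1.84 to 2.0). These 3 had the highest infarct ratios labelled Neil3-/- of the small subunit genes at 5 RPKM or more. Rps19, known from its mutation in Diamond-Blackfan anaemia, was at 159 and 91.7 RPKM labelled Neil3-/- and at 162 and 87.4 RPKM in WT. Rps6, the target of the S6 kinases, had ratios of 1.71 (1.66 to 1.77) labelled Neil3-/- and 1.62 (1.58 to 1.67) in WT. Rps29 and Rps13 were the small subunit genes among the 5 lowest members of WT, with ratios of 1.34 (1.27 to 1.41) and 1.36 (1.28 to 1.44). All of these small subunit genes were higher in both infarcted libraries than in both non-infarcted libraries.

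The stalk, which recruits elongation factors, had a median log2 ratio of 0.51 in the libraries labelled Neil3-/- and 0.59 in WT. Rplp0, its base, was at 842 RPKM in infarcted and 590.1 RPKM in non-infarcted tissue labelled Neil3-/-, and at 888 and 589 RPKM in WT. Rplp1 had ratios of 1.66 (1.6 to 1.72) labelled Neil3-/- and 1.61 (1.56 to 1.67) in WT, and Rplp2 of 1.41 (1.3 to 1.53) labelled Neil3-/- and 1.39 (1.28 to 1.51) in WT. All 3 stalk genes had their higher levels in the infarcted library of each genotype.

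Members kept a like place within the family in both genotypes. Over the 75 members whose symbol does not end in l or l1, the log2 infarct ratio labelled Neil3-/- and that of WT had a Spearman correlation of 0.76 and a Pearson correlation of 0.69, a description across genes whose length, base composition and pseudogene copies are the same in both. The interquartile range of the RPKM ratios over the 80 members was 1.53 to 1.72 labelled Neil3-/- and 1.51 to 1.69 in WT. Counting intervals held the median ratio of the 75 for 35 genes labelled Neil3-/- and for 33 in WT. A ratio within a factor of 1.2 of that median was found for 68 of the 75 labelled Neil3-/- and for 73 in WT. The 26 of them with a tract near the annotated start had median log2 ratios of 0.68 labelled Neil3-/- and 0.67 in WT. The 29 without one had 0.68 labelled Neil3-/- and 0.66 in WT. This split rests on the annotated start, and a tract at another start counts as absent. Rps12, classed as without one, has a run of C and T further downstream. Whether TOP mRNAs differ from others can therefore not be decided from these medians.

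Rpl3l went the other way from the family in both genotypes. It was at 8.10 RPKM (206 reads) in infarcted and 83.0 RPKM (1658 reads) in non-infarcted tissue labelled Neil3-/-, a ratio of 0.0976 (0.0840 to 0.113), or 10.3-fold lower. In WT it was at 12.2 RPKM (295 reads) in infarcted and 54.9 RPKM (1143 reads) in non-infarcted tissue, a ratio of 0.223 (0.195 to 0.253), or 4.49-fold lower. The 2 infarcted libraries were the low ones, and their values lay well apart from those of the non-infarcted libraries. On the log2(RPKM + 1) scale only 3 of 12563 genes had a lower infarct ratio labelled Neil3-/-, and only 16 of 12515 in WT. Between 95% and 96.8% of the Rpl3l model was covered in each library, and none of its 50-base stretches occurred in another gene.

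Rpl3 itself was higher in infarcted tissue. It was at 471 RPKM in infarcted and 274 RPKM in non-infarcted tissue labelled Neil3-/-, a ratio of 1.72 (1.67 to 1.78), and at 503 and 317 RPKM in WT, a ratio of 1.59 (1.54 to 1.63). Per length, the Rpl3l to Rpl3 ratio was 0.0172 (0.0149 to 0.0197) in infarcted and 0.303 (0.287 to 0.321) in non-infarcted tissue labelled Neil3-/-. In WT it was 0.0243 (0.0216 to 0.0273) in infarcted and 0.173 (0.162 to 0.184) in non-infarcted tissue. Rpl3l thus made up 1.69% of the pair in infarcted and 23.3% in non-infarcted tissue labelled Neil3-/-, and 2.37% and 14.8% in WT. The ratio was 17.6-fold lower in infarcted tissue labelled Neil3-/- and 7.12-fold lower in WT, values that do not depend on the scaling between libraries. Reads of Rpl3 pseudogenes may be counted with Rpl3, so the level of each ratio is uncertain. The part of such reads in its difference between libraries was not tested.

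Eef1a2 and Eef1a1, the muscle and neuron form and the general form of the factor that brings aminoacyl-tRNA to the ribosome, moved in the same directions as Rpl3l and Rpl3. Eef1a2 was at 268 RPKM in infarcted and 658 RPKM in non-infarcted tissue labelled Neil3-/-, and at 355 and 652 RPKM in WT. Eef1a1 was at 2408 and 1038 RPKM labelled Neil3-/-, and at 2138 and 974 RPKM in WT. The Eef1a2 to Eef1a1 ratio was 0.112 in infarcted and 0.634 in non-infarcted tissue labelled Neil3-/-, and 0.166 and 0.670 in WT, which is 5.69-fold lower in infarcted tissue labelled Neil3-/- and 4.04-fold lower in infarcted WT tissue.

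**Figure D3:**
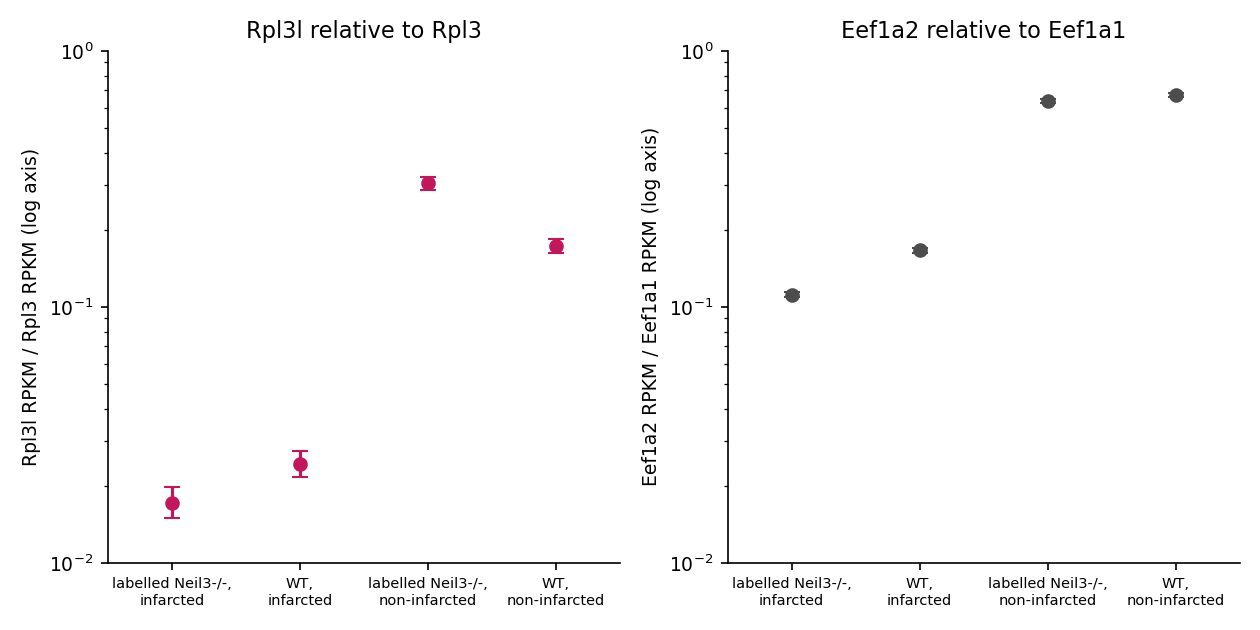
Ratio of RPKM of Rpl3l to Rpl3 (left) and of Eef1a2 to Eef1a1 (right) in each library on log axes, with exact 95% counting intervals. Rpl3l to Rpl3 lies at 0.0172 and 0.0243 in the infarcted libraries labelled Neil3-/- and WT, and at 0.303 and 0.173 in the non-infarcted libraries labelled Neil3-/- and WT.

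Cardiomyocyte markers moved with Rpl3l. All 13 listed markers, among them Myh6, Tnnt2 and Tcap, passed 1.5-fold downwards in infarcted tissue of both genotypes, with median log2 ratios of -1.58 labelled Neil3-/- and -1.3 in WT. Their summed level was 12796 RPKM in infarcted and 37164 RPKM in non-infarcted tissue labelled Neil3-/-, and 19272 and 39069 RPKM in WT; none was at 0. Of the 13, 0 had a lower infarct ratio than Rpl3l in either genotype. Per 1000 RPKM of summed markers, Rpl3l was at 0.633 and 0.634 RPKM in the infarcted libraries labelled Neil3-/- and WT, and at 2.23 and 1.4 RPKM in the non-infarcted libraries labelled Neil3-/- and WT. Rpl3l was thus lower in infarcted tissue relative to these markers as well, and the part of cell number in its level was not tested.

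The genes with the pattern most like Rpl3l over the 4 libraries were Lrtm1, Mylk4, Dhrs7c, Hrc and Kcnip2. They were the nearest of 9642 genes by the root mean square difference of log2(RPKM + 1) centred on each gene's mean, at 0.13, 0.19, 0.19, 0.20 and 0.23 log2 units. Lrtm1, the nearest, was at 5.28 and 6.62 RPKM in the infarcted libraries labelled Neil3-/- and WT, and at 45.7 and 36.1 RPKM in the non-infarcted ones. Hrc, which binds calcium inside the sarcoplasmic reticulum, was at 33.3 and 37.4 RPKM in the infarcted libraries labelled Neil3-/- and WT, and at 219 and 183 RPKM in the non-infarcted ones. All 5 were low in infarcted tissue, and likeness over 4 libraries describes only these libraries.

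The other paralogues did not follow Rpl3l. Rps27l, a p53-responsive form of Rps27, was at 74.7 RPKM in infarcted and 56.7 RPKM in non-infarcted tissue labelled Neil3-/-, a ratio of 1.32 (1.16 to 1.5), and at 75 and 46.7 RPKM in WT, a ratio of 1.61 (1.4 to 1.84). Rpl36al, an intronless form of Rpl36a, was at 217 and 144 RPKM labelled Neil3-/- and at 212 and 140 RPKM in WT, and made up 42.1% and 45.8% of its pair labelled Neil3-/- and 43.3% and 46.5% in WT. Rpl7l1, which acts in assembly of the large subunit, was at 24.1 and 16.5 RPKM labelled Neil3-/- and at 25.9 and 17.9 RPKM in WT, ratios of 1.45 (1.32 to 1.61) labelled Neil3-/- and 1.45 (1.32 to 1.59) in WT. These 3 were higher in both infarcted libraries, like the family. Rpl22l1 was at 5.41 and 1.61 RPKM (47 and 11 reads) labelled Neil3-/-, a ratio of 3.35 (1.71 to 7.17), and at 5.95 and 3.66 RPKM (49 and 26 reads) in WT, a ratio of 1.63 (0.991 to 2.73). Rpl39l, known from testis, had 1 to 4 reads and gave no usable ratio.

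Ribosomal proteins whose symbols fall outside the rule were read beside the members. Rpsa, the laminin-receptor precursor of the small subunit, had ratios of 1.6 (1.56 to 1.63) labelled Neil3-/- and 1.6 (1.57 to 1.64) in WT. Fau, fused to a ubiquitin-like domain, had 1.74 (1.64 to 1.84) labelled Neil3-/- and 1.79 (1.69 to 1.89) in WT. Gnb2l1, the scaffold Rack1, had 1.6 (1.55 to 1.65) labelled Neil3-/- and 1.71 (1.65 to 1.76) in WT.

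Ribosome biogenesis genes had medians close to that of the proteins themselves. Of 37 ribosome biogenesis genes, 22 (59.5%) passed 1.5-fold upwards and 0 downwards in each genotype, against 25.0% of all genes upwards labelled Neil3-/- and 21.6% in WT, with median log2 ratios of 0.69 labelled Neil3-/- and 0.65 in WT. With TMM scaling 11 passed labelled Neil3-/- (29.7%, against 14.8% of all genes) and 6 in WT (16.2%, against 12.7%), and the medians were 0.46 and 0.44. Nop58 and Nop56 belong to the complex that methylates ribosomal RNA. They were at 38.0 and 46.3 RPKM in infarcted and 16.8 and 22.5 RPKM in non-infarcted tissue labelled Neil3-/-. In WT they were at 35.7 and 47.0 RPKM against 20.1 and 24.9 RPKM. Nhp2, of the pseudouridylation complex, had ratios of 1.89 (1.65 to 2.16) labelled Neil3-/- and 2.33 (2.04 to 2.68) in WT, and fibrillarin (Fbl) of 1.92 (1.73 to 2.13) labelled Neil3-/- and 1.89 (1.71 to 2.09) in WT. RNA polymerase I genes had medians of 0.39 labelled Neil3-/- and 0.33 in WT, with 2 of 13 genes (15.4%) past 1.5-fold upwards labelled Neil3-/- and 1 (7.69%) in WT, shares below those of all genes. Taf1d, a subunit of its initiation factor, passed in both, with ratios of 1.96 (1.66 to 2.33) labelled Neil3-/- and 1.65 (1.41 to 1.95) in WT.

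Translation factors were more mixed. Of 20 elongation factors and other genes with known TOP mRNAs, 7 labelled Neil3-/- and 6 in WT passed 1.5-fold upwards (35% and 30%, against 25.0% and 21.6% of all genes) and 1 downwards in each (12.4% and 9.56% of all genes), with medians of 0.41 labelled Neil3-/- and 0.29 in WT. With TMM scaling 4 labelled Neil3-/- (20%, against 14.8% of all genes) and 3 in WT (15%, against 12.7%) passed upwards. The medians were then 0.18 and 0.08. Pabpc1, the cytoplasmic poly(A)-binding protein, had ratios of 2.40 (2.34 to 2.47) labelled Neil3-/- and 2.06 (2.01 to 2.12) in WT. Npm1, a nucleolar chaperone, had 2.44 (2.33 to 2.56) labelled Neil3-/- and 1.92 (1.83 to 2.01) in WT, and Nap1l1, a histone chaperone, 2.21 (2.10 to 2.33) labelled Neil3-/- and 1.65 (1.57 to 1.74) in WT. The gene that was lower was Naca, which also makes a long muscle isoform, at 82.1 RPKM in infarcted and 198 RPKM in non-infarcted tissue labelled Neil3-/- and at 133 and 222 RPKM in WT. The 15 initiation factor genes had medians of 0.48 labelled Neil3-/- and 0.34 in WT, above the 0.24 and 0.21 of all genes. With TMM scaling 2 (13.3%) passed 1.5-fold upwards in each genotype, against 14.8% of all genes labelled Neil3-/- and 12.7% in WT. With the deposited scaling 3 (20%) passed in each, against 25.0% of all genes labelled Neil3-/- and 21.6% in WT. Among these 3 were Eif6, which keeps the subunits apart, with ratios of 2.02 (1.84 to 2.23) labelled Neil3-/- and 2.24 (2.05 to 2.46) in WT, and the helicase Eif4a1, with 1.90 (1.84 to 1.96) labelled Neil3-/- and 1.88 (1.82 to 1.93) in WT. Genes of mTORC1 and TOP control had medians of 0.14 in both genotypes, below the median of all genes, and with TMM scaling of -0.09 labelled Neil3-/- and -0.06 in WT. The 1 of these 15 past 1.5-fold in each was Myc, a driver of ribosome production, at 29.0 RPKM in infarcted and 9.10 RPKM in non-infarcted tissue labelled Neil3-/- and at 34.6 and 10.5 RPKM in WT. In the p53 arm of 4 genes, Trp53 had ratios of 2.11 (1.92 to 2.33) labelled Neil3-/- and 2.05 (1.87 to 2.26) in WT, while Mdm2 had 1.13 (1.04 to 1.22) labelled Neil3-/- and 1.23 (1.14 to 1.33) in WT, and turned to -0.06 on the log2 scale labelled Neil3-/- with TMM scaling.

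**Figure D4:**
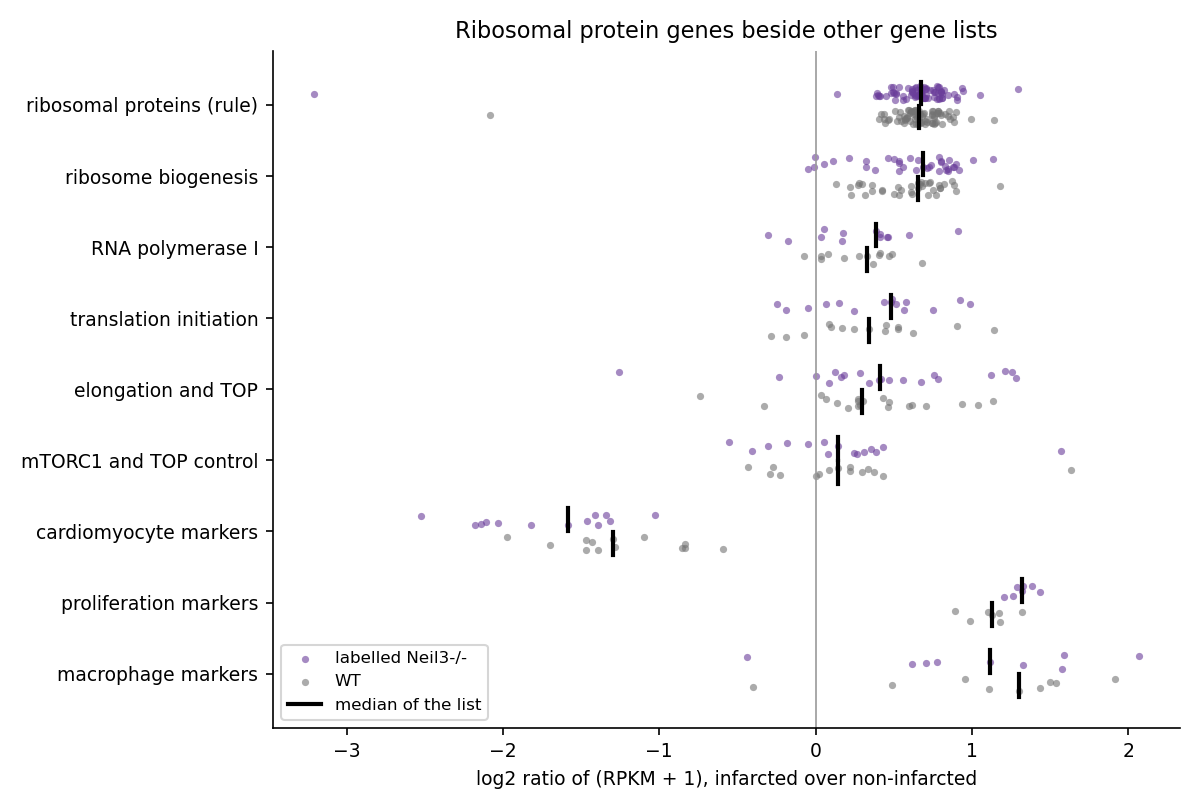
Log2 ratio of (RPKM + 1) in infarcted over non-infarcted tissue for each gene of the ribosomal protein family and of 8 other lists, libraries labelled Neil3-/- above WT, with the list's median as a black bar. Ribosomal protein and ribosome biogenesis genes have medians of 0.65 to 0.69, cardiomyocyte markers of -1.58 and -1.3.

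Most markers of 4 other lists were higher where the family was higher, and so were most endothelial and all compared erythrocyte markers. Endothelial markers had a median log2 ratio of 0.68 in each genotype, with 3 of 6 past 1.5-fold upwards. The 4 erythrocyte markers compared all passed in each, with medians of 0.79 labelled Neil3-/- and 0.89 in WT. All 6 neutrophil and all 7 proliferation markers passed 1.5-fold upwards in infarcted tissue of both genotypes, as did 8 of 9 macrophage markers labelled Neil3-/- and 7 of 9 in WT, and 4 of 7 fibroblast markers in each, against 25.0% of all genes labelled Neil3-/- and 21.6% in WT. The macrophage marker Cd163 was below 0 in both genotypes, at log2 ratios of -0.44 labelled Neil3-/- and -0.40 in WT. Of the fibroblast markers, Dcn was below 0 labelled Neil3-/- (-0.08), and Dcn, Lum and Postn were in WT (-0.30, -0.25 and -0.03). With TMM scaling 5 macrophage (55.6%) and 3 fibroblast markers (42.9%) passed upwards labelled Neil3-/-, against 14.8% of all genes. In WT 7 (77.8%) and 1 (14.3%) did, against 12.7%. All neutrophil and proliferation markers still passed. Of the endothelial markers 2 then passed in each genotype, and of the erythrocyte markers 2 labelled Neil3-/- and 4 in WT. Under that scaling 1 macrophage marker passed downwards in each genotype, against 17.5% of all genes labelled Neil3-/- and 14.4% in WT. The fibroblast marker Lum and the endothelial marker Tek turned below 0 labelled Neil3-/-, at log2 ratios of -0.09 and -0.06. Summed macrophage markers stood at 1509.6 RPKM in infarcted and 683 RPKM in non-infarcted tissue labelled Neil3-/-, and at 1089 and 416 RPKM in WT. Summed proliferation markers were at 194 and 73.7 RPKM labelled Neil3-/- and at 130 and 58.2 RPKM in WT, and none of the markers in these 4 lists was at 0. Ribosomal RNA remained in all libraries, with the 28S gene at 3222 and 2268 RPKM in the infarcted libraries labelled Neil3-/- and WT, and at 3433 and 3931 RPKM in the non-infarcted ones. The 18S gene (Rn18s) differed from this, at 4313 and 2008 RPKM in the infarcted libraries labelled Neil3-/- and WT, and at 2403 and 2446 RPKM in the non-infarcted ones, and was highest in the infarcted library labelled Neil3-/-. The part of cell mix and of the ribosomal RNA left in each library in the family's level was not tested.

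The levels of the family were close in the genotypes. In infarcted tissue the median log2 ratio of labelled Neil3-/- over WT was -0.02, and 0 of 80 members were 1.5-fold apart, against 1.51% of all genes higher and 1.55% lower, and 0 were 2-fold apart, against 0.249% higher and 0.241% lower. In non-infarcted tissue the median was -0.01, and of 79 members 1 was at least 1.5-fold higher (1.14% of all genes) and 1 lower (0.613%), namely Rpl3l and Rpl22l1. The ratio of Rpl22l1 was 0.441 (0.197 to 0.924), from 11 reads labelled Neil3-/- and 26 in WT. At 2-fold, 0 members were apart there, against 0.254% of all genes higher and 0.188% lower. Counting intervals lay across 1 for 37 members in infarcted and 63 members in non-infarcted tissue. The log2 infarct ratio labelled Neil3-/- minus that of WT had a median of 0.01 over 80 members, with 46 above 0 and 34 below, against 6121 above and 6241 below of all genes, and its sign turned with the scaling, to -0.02 with median-of-ratios and -0.003 with TMM scaling. Some marker lists were further apart in infarcted tissue, where cardiomyocyte markers had a median of -0.59 and fibroblast markers of 0.61 for labelled Neil3-/- over WT. The closeness was not particular to the family. There, medians were -0.04 for ribosome biogenesis, -0.01 for RNA polymerase I and -0.02 for initiation factor genes. They were 0.05 for elongation factors and other TOP genes and -0.03 for mTORC1 and TOP control. These numbers describe single libraries and do not show that the genotypes act alike.

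Within this narrow range, a few members lay further out. In infarcted tissue Rpl39, near the exit tunnel, was at 285 RPKM labelled Neil3-/- and 242 RPKM in WT, a ratio of 1.18 (1.11 to 1.26), Rps26 had 1.17 (1.13 to 1.22), and Rps29 1.11 (1.06 to 1.16). Rpl36, Rpl38, which is known from patterning of the mouse skeleton, and Rpl8, of the peptidyl transferase centre, were on the lower side, with 0.829 (0.770 to 0.893), 0.835 (0.786 to 0.888) and 0.887 (0.859 to 0.916). In non-infarcted tissue Rpl3 had the lowest ratio of the members at 5 RPKM or more, 0.863 (0.832 to 0.895), from 274 RPKM labelled Neil3-/- and 317 RPKM in WT. Rpl8 followed with 0.889 (0.851 to 0.928), close to its ratio in infarcted tissue. On the higher side Rps27l had 1.21 (1.04 to 1.41) and Rpl26 1.14 (1.03 to 1.26).

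**Figure D5:**
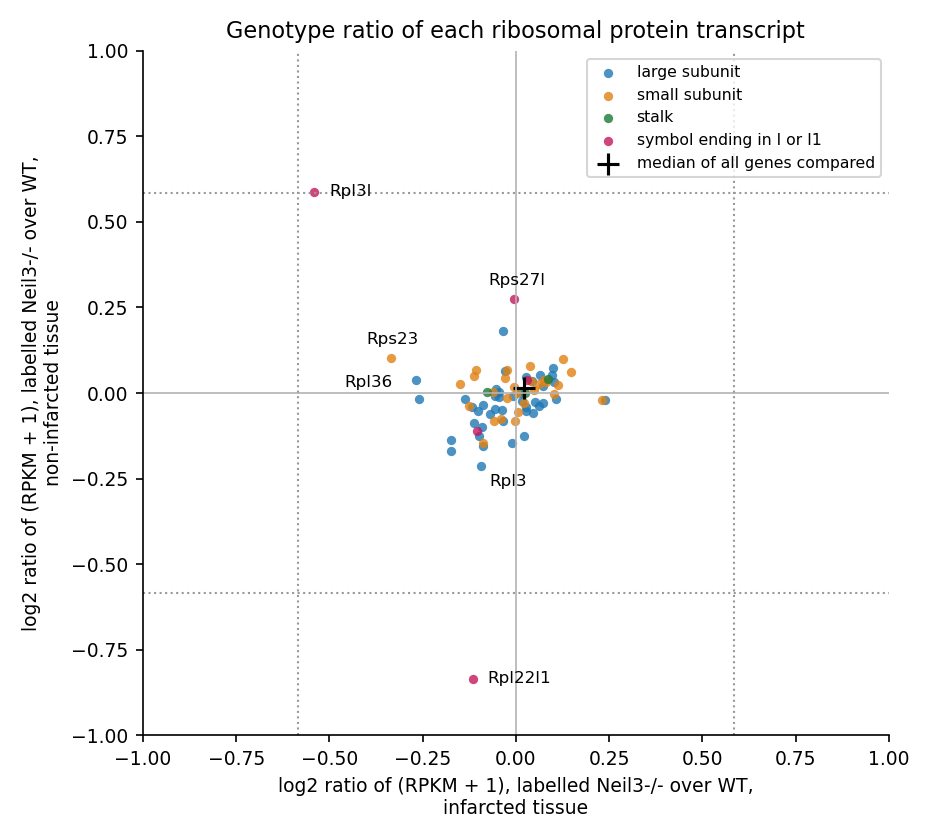
Log2 ratio of (RPKM + 1) in libraries labelled Neil3-/- over WT for the 79 members compared in both tissues, infarcted tissue on the horizontal axis and non-infarcted on the vertical, coloured by class; dotted lines mark 1.5-fold. Most members lie near 0 on both axes, Rpl3l at -0.54 and 0.59, and Rpl22l1, with 11 to 49 reads, low on the vertical axis.

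Rpl3l had the widest gap between the genotypes in its log2 infarct ratio, at -1.13 for labelled Neil3-/- minus WT. In infarcted tissue it was at 8.10 RPKM labelled Neil3-/- and 12.2 RPKM in WT, a ratio of 0.662 (0.552 to 0.794). In non-infarcted tissue it was at 83.0 RPKM labelled Neil3-/- and 54.9 RPKM in WT, a ratio of 1.51 (1.4 to 1.63). The order of levels was therefore non-infarcted labelled Neil3-/-, non-infarcted WT, infarcted WT and infarcted labelled Neil3-/-, with no replicate to show the spread between neighbours. With TMM scaling the non-infarcted value fell short of 1.5-fold. The 13 cardiomyocyte markers were all lower labelled Neil3-/- than in WT in infarcted tissue, with a median log2 ratio of -0.59 against -0.54 for Rpl3l, and their median was -0.09 in non-infarcted tissue against 0.59 for Rpl3l.

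Markers of other muscle types also differed between the genotypes. Myl1, a light chain of fast skeletal muscle, was at 47.5 RPKM labelled Neil3-/- and 18.1 RPKM in WT in infarcted tissue, and at 84.6 and 37.8 RPKM in non-infarcted tissue. Acta1, skeletal actin, which ventricle also makes, was at 604 RPKM labelled Neil3-/- and 476 RPKM in WT in infarcted tissue, and at 1163 RPKM labelled Neil3-/- and 732 RPKM in WT in non-infarcted tissue. The 10 skeletal muscle markers, of which 9 had a read in any library, summed to 661 RPKM labelled Neil3-/- and 500.1 RPKM in WT in infarcted tissue. In non-infarcted tissue they summed to 1253 and 775 RPKM. Acta1 made up most of each sum, so the sums do not measure skeletal muscle. The skeletal myosin heavy chain Myh2 was at 0 in all 4 libraries, and Myh1 in all but non-infarcted WT tissue. Myh4 was at 0 in all but infarcted WT tissue, and Tnnc2 in both infarcted libraries. The atrial light chain Myl7 was at 10.6 RPKM labelled Neil3-/- and 49.0 RPKM in WT in non-infarcted tissue, and under 1 RPKM in both infarcted libraries. The part of such tissue differences in the Rpl3l ratio was not tested.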

How the data were processed

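Total RNA of left ventricle was sequenced in 4 libraries, 1 per group. Per the file headers, the deposited tables give, per gene and Entrez identifier, a read count of unique reads, the gene length, the coverage in percent of the gene model and the RPKM, which the authors computed as reads scaled to gene length in kilobases and to the library's unique reads. The submitters' processing notes name build mm9. The aligner, the counter, the annotation and the meaning of unique are not stated in the sources used here. Genes missing from a table were set to 0 reads.

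The members and gene lists were chosen with earlier results of these data known. For each comparison, genes reaching 1 RPKM in either library were kept, and log2((RPKM + 1) / (RPKM + 1)) was taken; folds computed so understate the difference of weak genes. Members at least 1.5-fold and 2-fold apart were counted beside all genes. RPKM ratios carry exact 95% Clopper-Pearson intervals of the read share. No test was run and no p-value is given, since each group has 1 library. Named were Neil3, the suffix-l members with their parents, the 5 highest and 5 lowest members at 5 RPKM or more per comparison, the 3 highest and 3 lowest by mean, up to 4 genes per list and the 5 genes most like Rpl3l. Rpl5, Rpl11, Rps6, the stalk genes and Mdm2 were added for their roles, after their values were seen. Promoters (RefSeq, GRCm38.p6) and 50-base stretches (GENCODE M21 transcripts) were used for sequence only, not for mm9 positions. Some genes are not reported here. Ratios were tested on simulated counts. Alternatives covered scaling, library total, pseudocount, filter and member set. Python 3.11.15 with numpy 2.4.6, pandas 2.3.3, scipy 1.17.1 and matplotlib 3.10.9 was used, and edgeR 4.0.16 gave TMM factors.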

Additional observations from a re-analysis of the deposited data

Results flagged for a closer look

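With the deposited scaling, Rpl3l and Rps15 had genotype ratios on opposite sides of 1 in the infarcted and the non-infarcted tissue. Their counting intervals left out 1 in both. For Rpl3l, the ratio of labelled Neil3-/- over WT was 0.662 in infarcted and 1.51 in non-infarcted tissue. For Rps15, a small subunit protein near the decoding site, it was 0.928 (0.899 to 0.959) in infarcted tissue, from 797 RPKM labelled Neil3-/- and 858 RPKM in WT. In non-infarcted tissue the Rps15 ratio was 1.05 (1.004 to 1.092), from 583 and 557 RPKM. The lower end of that interval lies close to 1, and intervals were not taken under the other scalings. With 1 library per group the difference was not tested for either gene.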

How the results depend on the processing

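With 1 library per group, no setting can show the spread between animals. No paired analysis was possible because each group has 1 library, so that no replicate numbers are shared; an infarct difference over both genotypes, with genotype as a block, was not fitted. The infarct median of the family and the infarct ratios of Rpl3l and Rpl3 kept their direction under every alternative run for them. The infarct ratios of Rpl36 and Mdm2 (both labelled Neil3-/-) and the mTORC1 and TOP control median turned below 0 with TMM scaling, with the values given above. These were not the only ones. Some genes of the initiation, elongation, ribosome biogenesis, RNA polymerase I and mTORC1 lists also turned below 0 in each genotype. So did Lum and Tek labelled Neil3-/- and Mdm4 of the p53 arm in WT. The median difference between the genotypes' infarct ratios turned below 0 with median-of-ratios and TMM scaling. In infarcted tissue, the members' median of labelled Neil3-/- over WT turned from -0.02 to 0.003 with members sharing under 50% of their stretches. With median-of-ratios scaling, the members' median infarct log2 ratio was 0.42 labelled Neil3-/- and 0.43 in WT, and with TMM scaling 0.44 in both; members 1.5-fold apart in either direction then numbered 9 and 10 labelled Neil3-/-, and 10 and 11 in WT (61 and 63 as reported). Relative to the median of all genes, the members' median stayed at 0.41 to 0.56 labelled Neil3-/- and 0.42 to 0.55 in WT. Between genotypes in non-infarcted tissue, 1 member rather than 2 was 1.5-fold apart under either scaling, with the total without ribosomal, small and mitochondrial RNA, with the 5 RPKM filter, with members covered at 90% or more, and with members sharing under 50% of their 50-base stretches; without suffix-l members it was 0. A pseudocount of 0.1 RPKM gave 2 members 1.5-fold apart in infarcted and 1 member 2-fold apart in non-infarcted tissue. For the infarct ratio, members covered at 90% or more gave 38 of 45 past 1.5-fold in each genotype, and members sharing under 50% of their stretches, a set added after seeing the data, 31 of 39 labelled Neil3-/- and 32 of 39 in WT, since fewer members were left. Members 2-fold apart came to 1 labelled Neil3-/- without suffix-l members and with 90% coverage, and to 1 in WT under these, the 5 RPKM filter and the shared-stretch set. The share of reads was 2.63% and 2.62% in infarcted and 1.65% and 1.67% in non-infarcted tissue (labelled Neil3-/- and WT) without ribosomal, small and mitochondrial RNA in the total, and 2.71%, 2.73%, 1.71% and 1.73% with Rpsa and Fau added, a set chosen after seeing the data; another planned set was not run. Other moved values were those of Rpl3l and Rpl3 under the scalings, where the Rpl3l log2 infarct ratio ranged from -3.45 to -3.21 labelled Neil3-/- and from -2.30 to -2.09 in WT over the alternatives.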
